A study of Saccharomyces cerevisiae with 2 samples.

Results

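Trehalose and glycogen are the reserve carbohydrates of budding yeast, and 10 genes of their synthesis and breakdown were followed here after enzymatic damage to the cell wall. The 10 genes were taken by ORF name from a list drawn up by function, and all 10 had a ratio on both arrays, among 6207 open reading frames (ORFs) in the deposited table. They are TPS1 (YBR126C), TPS2 (YDR074W), TPS3 (YMR261C) and TSL1 (YML100W) for trehalose synthesis, NTH1 (YDR001C), NTH2 (YBR001C) and ATH1 (YPR026W) for trehalose breakdown, GSY1 (YFR015C) and GSY2 (YLR258W) for glycogen synthesis, and GPH1 (YPR160W) for glycogen breakdown. None of the 10 passed the test for a difference between treated and untreated cells, and 9 of the 10 had intervals that include 0. The lowest ratio of the 10 was that of ATH1, the acid trehalase gene, which was negative on both arrays.

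By the genotype labels every RNA came from a sho1 mutant in the BY4741 background. Treated and untreated cells alike would then carry the mutation in Sho1, a membrane sensor of the osmotic stress pathway. One part of each culture received 0.8 units per ml of Zymolyase, a glucan-digesting enzyme preparation, and the other part was left untreated at the same 24 °C in rich glucose medium (YEPD), both for 3 hours. Array 1 had the treated RNA in the Cy3 channel and array 2 had it in the Cy5 channel. Nothing in the labels ties each array to a culture of its own, so p-values measure only the spread between these arrays, which may be technical. In the p-values and intervals that spread is taken mostly over all ORFs and little from the gene itself, with 23.5 prior degrees of freedom against 1. A comment on the untreated channel of array 2 names a hog1 mutant, against the genotype label of that same channel. If the comment held, the ratios of array 2 would also compare different mutants, which was not tested.

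Trehalose is made in the cytosol by a complex in which Tps1 joins UDP-glucose to glucose phosphate and Tps2 removes the phosphate, with Tps3 and Tsl1 as regulatory subunits. It protects proteins and membranes under stress, and it is split to glucose by the trehalases. Glycogen is extended by glycogen synthase, encoded by GSY1 and GSY2, and shortened by the phosphorylase Gph1. In wild-type yeast many of these genes respond to the stress transcription factors Msn2 and Msn4, and stressed cells often turn trehalose over, transcribing genes for its synthesis and its breakdown at the same time.

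The values are log2 ratios as the authors deposited them, 1 per ORF and array, with no spot intensities used here, so precision is limited by there being 2 arrays and the brightness of each spot is not known. Which channel was the numerator is not stated, nor whether the swapped dyes had been turned. A positive value is called higher, on the assumption that both columns are treated over untreated. Across 5311 ORFs with both values the columns had a Pearson r of -0.012 and a Spearman rho of -0.263, a description across genes, which are not independent replicates and whose negative rho does not favour columns turned the same way. The columns are nevertheless read as deposited, and means with array 1 turned are given beside them, as they would hold if both columns were ratios of fixed dyes. The wall damage genes KDX1, at 1.45 and 1.27, and CRG1, at 1.06 and 1.09, had high values on both arrays, and these had counted in the earlier choice of this reading. SHO1 had no value on either array, so the mutation was not checked. STE2 and BAR1, markers of the a mating type of BY4741, were measured, but a ratio of treated to untreated cells cannot show whether a marker is present.

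Of the 10 genes, 0 passed limma's moderated test at an adjusted p of 0.05 as higher and 0 as lower. Over all 5311 ORFs the share was 0.772% higher and 0% lower. At an unadjusted p under 0.05 the 10 genes gave 1, ATH1, against 3.60% of all ORFs. The 10 means lay between -0.35 and 0.16, with a median of -0.01 against -0.03 for all ORFs. The smallest mean that passed anywhere on the arrays was 0.55. For the 9 genes other than ATH1, the 95% intervals of the mean ran at most from -0.45 to 0.44, which is 1.36-fold lower to 1.35-fold higher. With array 1 turned, the intervals of these 9 ran from -0.46 to 0.41. In that fit 0 of the 10 passed (lowest limma adjusted p = 0.524), beside 0 of all 5311 ORFs (lowest 0.487).

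**Figure D1:**
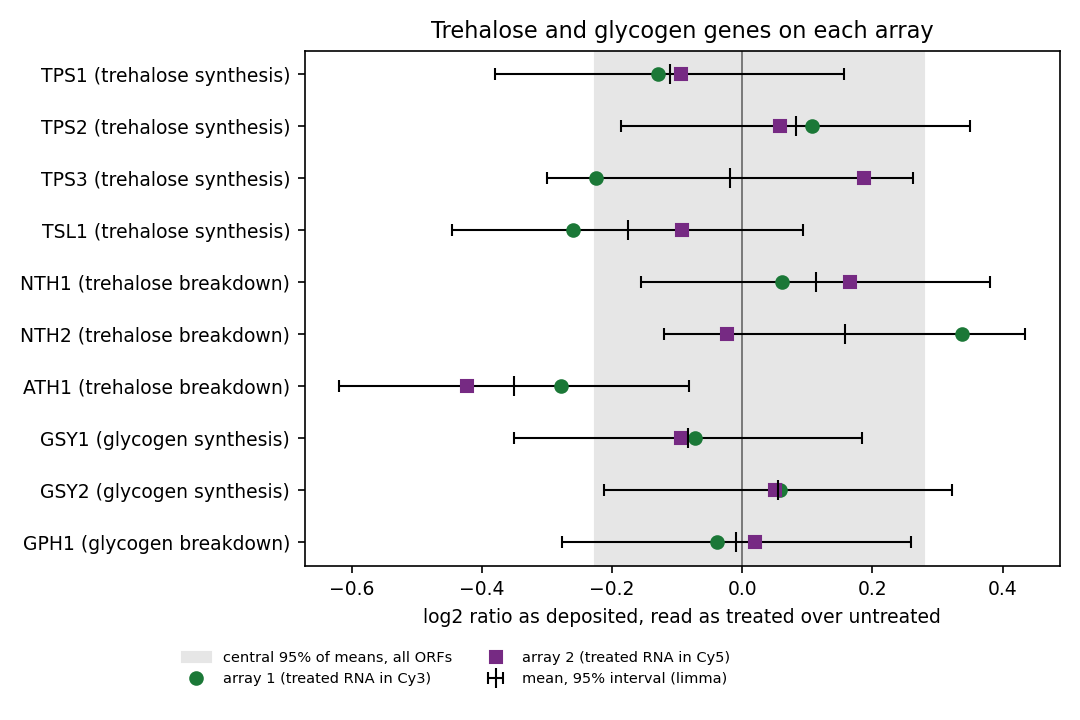
Log2 ratio of each of the 10 genes (horizontal axis) on array 1 (circles) and array 2 (squares), with the mean and limma's 95% interval (n = 2 arrays) and the central 95% of the means of all 5311 ORFs (grey band, -0.23 to 0.28). ATH1 is the gene whose mean, -0.35, lies outside the band and whose interval does not include 0.

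The genes of the trehalose synthase complex had small ratios, and as deposited the signs of their means were mixed. Each interval included 0 and each mean changed sign with array 1 turned, so no direction is given for any of them. TPS1, the synthase, was -0.13 on array 1 and -0.09 on array 2. Both arrays put it slightly below 0, at a mean of -0.11 ± 0.03 (SD, n = 2; limma adjusted p = 1.00), a ratio 1.08-fold lower with an interval from -0.38 to 0.16. TPS2, the phosphatase that acts on the product of Tps1, was 0.11 on array 1 and 0.06 on array 2. It lay above 0 on both, at a mean of 0.08 ± 0.03 (SD, n = 2; limma adjusted p = 1.00), with an interval from -0.19 to 0.35. The intervals of synthase and phosphatase overlap from -0.19 to 0.16.

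TSL1, a large regulatory subunit whose transcript is a well-known stress marker in wild-type yeast, was -0.26 on array 1 and -0.09 on array 2. Both values were below 0, at percentiles 8.51 and 31.8 of all ORFs, with a mean of -0.18 ± 0.12 (SD, n = 2; limma adjusted p = 1.00) and an interval from -0.45 to 0.09. TPS3, the other regulatory subunit and a paralogue of TSL1, was -0.22 on array 1 and 0.19 on array 2. The arrays disagreed in sign for TPS3, and its mean of -0.02 ± 0.29 (SD, n = 2) hides values at percentiles 12.3 and 91.8. As deposited, its difference between arrays, 0.41 in size, was the largest of the 10 genes and exceeded that of 85.6% of all ORFs. With array 1 turned TPS3 would have a mean of 0.21 and TSL1 one of 0.08, neither past the test (limma adjusted p = 0.524 and 0.825).

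The 3 trehalase genes differed most among themselves. NTH1, the main neutral trehalase of the cytosol, which protein kinase A activates, was 0.06 on array 1 and 0.17 on array 2. Both were above 0, at a mean of 0.11 ± 0.07 (SD, n = 2; limma adjusted p = 1.00), 1.08-fold higher, with an interval from -0.16 to 0.38. NTH2, its paralogue, was 0.34 on array 1 and -0.02 on array 2. Array 1 alone put NTH2 high, at percentile 94.7, while array 2 put it at percentile 49.2, and the mean of 0.16 ± 0.26 (SD, n = 2; limma adjusted p = 1.00) rests on array 1.

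ATH1, the acid trehalase that acts outside the cytosol and lets cells use external trehalose, was -0.28 on array 1 and -0.42 on array 2. Both values were low, at percentiles 7.19 and 1.79 of all ORFs, and only 1 other ORF was at or below ATH1 on both arrays. Its mean of -0.35 ± 0.10 (SD, n = 2; limma adjusted p = 0.693) is a ratio 1.27-fold lower, with an interval from -0.62 to -0.08, and it ranked 9 from the lowest of 5311 means. ATH1 did not pass, and neither did any other ORF below 0 (lowest limma adjusted p = 0.361 among them). With array 1 turned its values would oppose each other and the mean would be -0.07. By size, ATH1 was the 1 gene of the 10 at least 1.2-fold lower on both arrays, a group of 0.226% of all ORFs, and 0 of the 10 were at least 1.2-fold higher on both, against 1.58%. ATH1 was known to be among the lowest ORFs of these data when the 10 genes were chosen, so this share is a description and not a test.

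The 3 ORFs nearest to ATH1 in both log2 ratios, by Euclidean distance over the 2 arrays, were DCG1, an ORF of unknown function beside the allantoin genes, at -0.33 and -0.40, RPL20B, a ribosomal protein gene, at -0.22 and -0.45, and VPS13, a lipid transfer protein gene, at -0.29 and -0.36. A likeness over only 2 arrays places these ORFs close together and says nothing more about them. CCL1, which flanks ATH1 in the R64 gene order, was 0.11 on array 1 and -0.07 on array 2. The flanking gene on the other side had no value on both arrays. Of the 20 genes that flank the 10, 17 were measured on both arrays, with means from -0.33 to 0.12. Of these 0 passed the test, beside 0.772% of all ORFs higher and 0% lower.

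**Figure D2:**
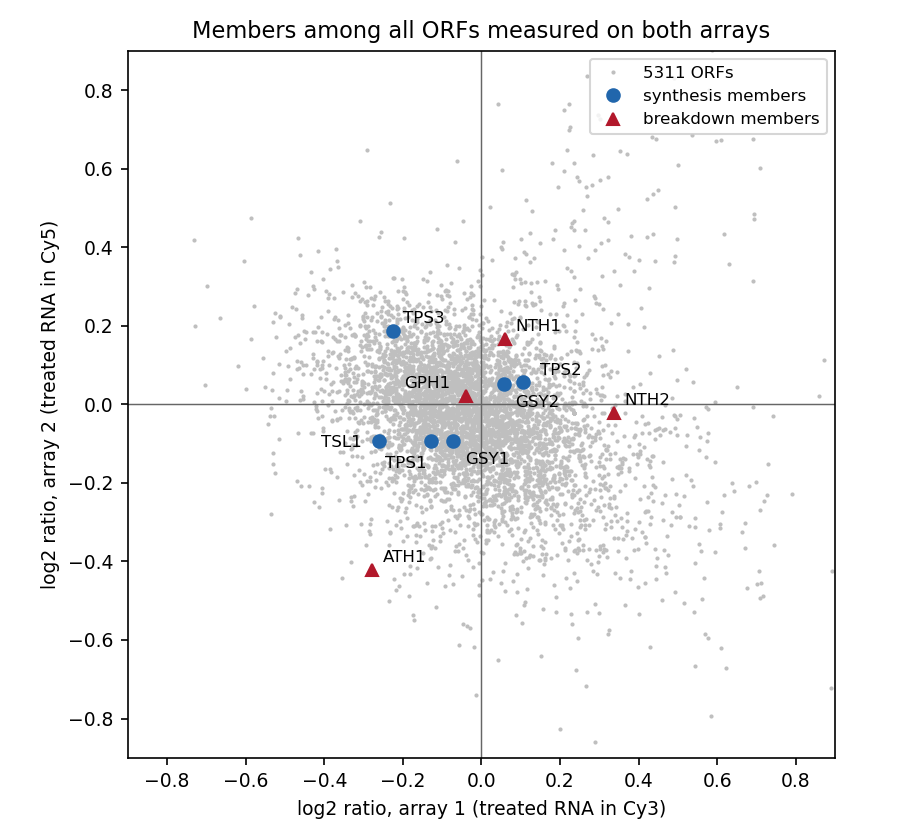
Log2 ratio on array 1 (horizontal) against array 2 (vertical) for 5311 ORFs (grey), with synthesis genes as circles and breakdown genes as triangles; 32 ORFs with a value beyond 0.9 in size lie outside the axes. ATH1 sits at the lower left edge of the cloud, TPS3 and NTH2 in quadrants of opposite sign, and the glycogen genes near the centre.

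The 3 glycogen genes had means from -0.08 to 0.05, and as deposited GSY1 and GSY2 had the closest values between arrays of the 10 genes. GSY1, the lesser glycogen synthase, was at -0.07 and -0.09 on arrays 1 and 2, for a mean of -0.08 ± 0.02 (SD, n = 2) with an interval from -0.35 to 0.18. GSY2, the main glycogen synthase, was at 0.06 and 0.05, for a mean of 0.05 ± 0.01 (SD, n = 2) with an interval from -0.21 to 0.32. GPH1, the phosphorylase, was -0.04 on array 1 and 0.02 on array 2, with a mean of -0.01 ± 0.04 (SD, n = 2) and an interval from -0.28 to 0.26. All 3 had a limma adjusted p = 1.00. In wild-type yeast GSY2 and GPH1 are stress-inducible. The largest of their ratios here on either array was 1.04-fold from 1, and without wild-type arrays this was not compared between strains.

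Signs were shared between arrays by 7 of the 10 genes. TPS2, NTH1 and GSY2 were above 0 on both arrays, against 14.0% of all ORFs, and TPS1, TSL1, ATH1 and GSY1 were below 0 on both, against 26.8%. The other 3, TPS3, NTH2 and GPH1, had opposite signs, and so had 3148 of the 5311 ORFs. Apart from ATH1, the values that share a sign are small: the lesser of the 2 values was at most 0.09 in size for each of the other 6.

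Synthesis and breakdown genes were then set against each other within each array, as the difference between the mean log2 ratio of the 6 synthesis genes (TPS1, TPS2, TPS3, TSL1, GSY1 and GSY2) and that of the 4 breakdown genes (NTH1, NTH2, ATH1 and GPH1). On array 1 the synthesis genes averaged -0.09 and the breakdown genes 0.02, a difference of -0.11. On array 2 they averaged 0.003 and -0.07, a difference of 0.07. The arrays therefore gave opposite signs, and the mean difference of -0.02 ± 0.12 (SD, n = 2) was smaller than the spread between arrays. No p is given for this difference, since the genes are not replicates of a condition.

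On array 2 the sign of this difference depended on ATH1 and on the use of means. By medians over all 10 genes it was -0.11 on array 1 and -0.02 on array 2. Without ATH1 the difference of means was -0.21 on array 1 and -0.05 on array 2. Breakdown was then above synthesis on both, at a mean of -0.13 ± 0.11, and turning array 1 would make the arrays oppose each other. Within trehalose metabolism the difference was -0.17 on array 1 and 0.11 on array 2, and without ATH1 it was -0.33 and -0.06. Within glycogen metabolism it was 0.03 on array 1 and -0.04 on array 2, with 2 synthesis genes against 1 breakdown gene. If array 1 is turned, the difference over all 10 genes has the opposite lean, 0.11 on array 1 and 0.07 on array 2, with a mean of 0.09 ± 0.03. The direction of any imbalance between synthesis and breakdown thus depends on the reading of the columns, on ATH1 and on the use of means or medians.

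**Figure D3:**
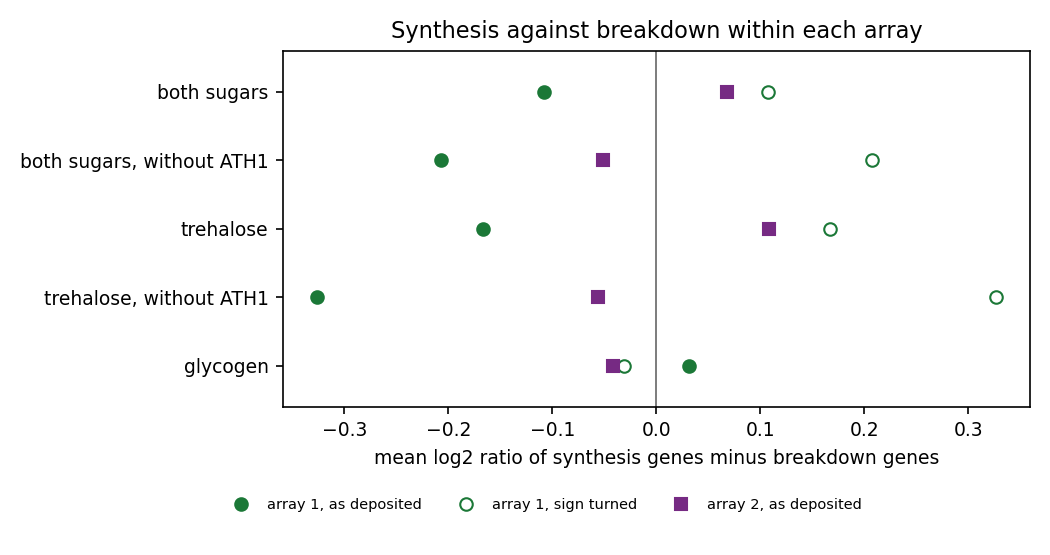
Mean log2 ratio of the synthesis genes minus that of the breakdown genes (horizontal axis) on array 1 as deposited (filled circles), array 1 with its sign turned (open circles) and array 2 (squares), for both sugars, with and without ATH1, and for each sugar. As deposited, the arrays lie on opposite sides of 0 for both sugars together (-0.11 and 0.07) and on the same side once ATH1 is left out (-0.21 and -0.05).

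Related genes on the list were compared by the difference of their log2 ratios within each array, with the limit that paralogues share sequence and their spots may cross-hybridise, which was not tested. NTH1 minus NTH2 was -0.28 on array 1 and 0.19 on array 2, so the arrays did not agree on which neutral trehalase had the higher ratio. GSY1 minus GSY2 was -0.13 on array 1 and -0.14 on array 2. This pair had the closest agreement, a mean of -0.14 ± 0.01 (SD, n = 2), which corresponds to a mean of -0.08 for GSY1 and 0.05 for GSY2. TPS3 minus TSL1 was 0.04 on array 1 and 0.28 on array 2, with TPS3 the higher of the 2 subunits on both. With array 1 turned, the mean difference for GSY1 and GSY2 would be -0.01, for NTH1 and NTH2 0.23, and for TPS3 and TSL1 0.12.

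Other genes of the same pathways, 28 on a list drawn up by function, gave 25 with a value on both arrays. By limma's test 0 passed in either direction, beside 0.772% of all ORFs higher and 0% lower. At an unadjusted p under 0.05 there were 0, beside 3.60% of all ORFs. The median mean ratio of the 25 was -0.08, against -0.03 for all ORFs. On both arrays 8 of the 25 were below 0 and 1 was above 0, beside the shares of 26.8% and 14.0% for all ORFs. Opposite signs were found for 16, and for 3148 of the 5311 ORFs. SGA1, the sporulation glucoamylase, and GAC1, a targeting subunit of the glycogen phosphatase, had no value on either array, and GIP2 had one on array 1 only, -0.34.

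The genes that activate glucose and supply UDP-glucose, the precursor of both sugars, were mostly below 0. Of these 6, 5 were negative on both arrays, beside 26.8% of all ORFs, and PGM1, the minor phosphoglucomutase, had opposite signs. Only 1 of the 6 was below 0 on both arrays, and 0 were above, with array 1 turned, beside 1549 and 1597 of the 5311 ORFs. Their median mean ratio was -0.16, with medians of -0.07 on array 1 and -0.21 on array 2. HXK2, the main hexokinase of glucose-grown cells, was -0.18 on array 1 and -0.21 on array 2, a mean of -0.19 ± 0.02. GLK1, glucokinase, was -0.15 on array 1 and -0.22 on array 2, a mean of -0.19 ± 0.04. Both lay below 0 by similar amounts on each array. HXK1, the hexokinase paralogue of HXK2, was -0.07 on array 1 and -0.36 on array 2, a mean of -0.21 ± 0.21. PGM2, the main phosphoglucomutase, had a mean of -0.14 ± 0.09, and UGP1, which makes UDP-glucose, had -0.11 ± 0.07. Each of these genes had a limma adjusted p = 1.00 (n = 2). With array 1 turned HXK2 and GLK1 would have means of -0.01 and -0.03.

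Of the 3 genes that start and branch glycogen, 2 were below 0 on both arrays, beside 26.8% of all ORFs. The other 1 had opposite signs, as had 3148 of the 5311 ORFs. GLG1, a glycogenin that primes the polymer, was -0.14 on array 1 and -0.17 on array 2, a mean of -0.16 ± 0.02. GLG2, the other glycogenin, was -0.14 on array 1 and -0.01 on array 2. The branching enzyme gene GLC3 and the debranching enzyme gene GDB1 had opposite signs on the arrays, as GPH1 did. None of them passed (limma adjusted p = 1.00, n = 2).

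As deposited, the arrays differed by more, in the median, for some groups of regulators than for ORFs at large. This contrast depends on the reading of the columns, and the group medians were not taken with array 1 turned. Under that reading the SD between arrays would go from 0.04 to 0.29 for PSK1 and from 0.42 to 0.07 for PCL8. The median size of the difference between arrays was 0.27 for the 7 listed genes of glycogen synthase kinases and their cyclins. It was 0.31 for the 4 regulators of neutral trehalase, against 0.17 for all ORFs and 0.08 for the 10 genes of the enzymes. For the 4 measured genes of the glycogen synthase phosphatase it was 0.18. Among the 7, the kinase genes PHO85, PSK1 and PSK2 differed by 0.27, 0.06 and 0.02 in size. The genes of Pho85 cyclins, PCL6, PCL7, PCL8 and PCL10, differed by 0.22 to 0.59, so the group's median does not hold for each kinase. PSK1, a PAS domain kinase that phosphorylates glycogen synthase and the enzyme encoded by UGP1, was 0.23 on array 1 and 0.17 on array 2, the 1 gene of the 25 above 0 on both. Its mean was 0.20 ± 0.04 (SD, n = 2; limma adjusted p = 1.00). Its paralogue PSK2 was -0.09 on array 1 and -0.11 on array 2.

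GLC8, a regulator of the phosphatase Glc7 that dephosphorylates glycogen synthase, was 0.48 on array 1 and -0.38 on array 2. BMH2, one of the genes for the proteins that bind and activate phosphorylated Nth1, was 0.29 on array 1 and -0.51 on array 2. These opposite values cancel in the means as deposited, 0.05 ± 0.61 and -0.11 ± 0.57. With array 1 turned they would give -0.43 and -0.40, with intervals from -0.64 to -0.22 and from -0.65 to -0.15. Neither would pass (limma adjusted p = 0.487, n = 2). In that fit 0 of 5311 ORFs passed, and 0.487 was the lowest limma adjusted p of any ORF. A dye effect on these spots and a treatment effect read with fixed dyes cannot be told apart from these columns.

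**Figure D4:**
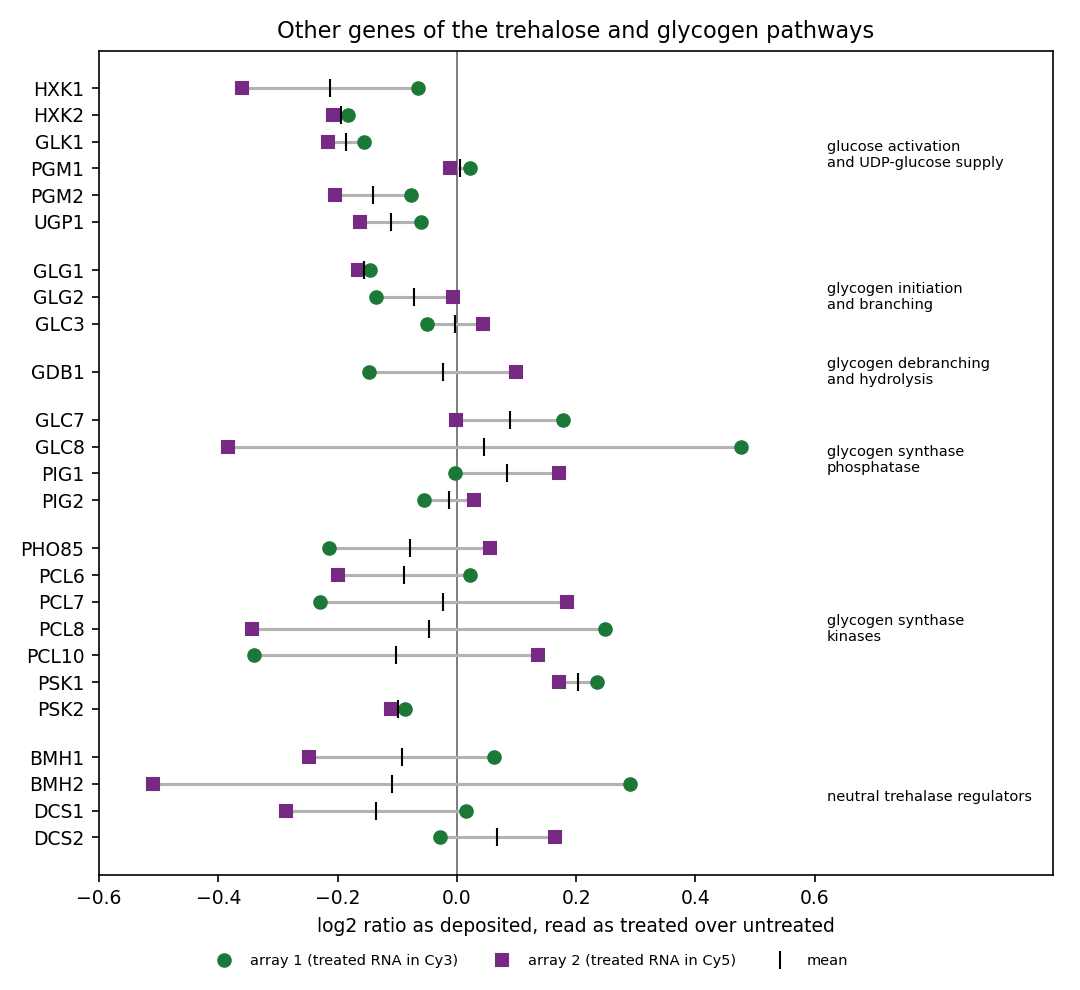
Log2 ratio of 25 other pathway genes (horizontal axis) on array 1 (circles) and array 2 (squares), joined by a line, with the mean as a bar, grouped by role. Genes of glucose activation lie left of 0 on both arrays except PGM1, while GLC8 and BMH2 span 0.86 and 0.80 between arrays.

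Of 16 listed stress targets of Msn2 and Msn4 outside this metabolism, 14 were measured on both arrays, and their means ran from -0.34 to 0.27 with a median of -0.09. On both arrays 2 were above 0 and 6 below 0, beside 14.0% and 26.8% of all ORFs. By limma's test 0 passed, beside 0.772% of all ORFs higher and 0% lower. At an unadjusted p under 0.05 there was 1, beside 3.60% of all ORFs. That gene was SOL4, a phosphogluconolactonase gene, at -0.53 on array 1 and -0.15 on array 2, a mean of -0.34 ± 0.27 (SD, n = 2) that is almost as low as that of ATH1. The highest mean was that of TMA10, a ribosome-associated protein gene, at 0.33 on array 1 and 0.21 on array 2. The means of SOL4 and TMA10 would be 0.19 and -0.06 with array 1 turned. Of the 6 listed genes of wall damage, all 6 were above 0 on both arrays with a median of 0.73, beside 14.0% of all ORFs. Of them 3 passed as higher, beside 0.772% of all ORFs. The contrast between these lists is given by their values only, because the wall damage genes had counted in the choice of the reading.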

How the data were processed

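Per the labels' protocols, total RNA of treated and untreated cells was labelled as cDNA with Cy3 or Cy5 and hybridised together on 2-colour arrays, with the dyes swapped between the 2 arrays. The authors deposited 1 log2 ratio per ORF and array. That scale was read from the values: as powers of 2, 100% of them fell on multiples of 0.0001 to a tolerance of 1% of this step. For background correction, normalization, spot filter and numerator, nothing is stated (not given in the sources used here). Of 6207 ORF rows, 5311 had a value on both arrays and were tested. The 2 control rows were left out. Listed ORFs were matched by locus tag to RefSeq's R64 table, which gave the same symbol for each. No array build is named, so no coordinates or sequences are given.

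Both columns, as deposited, entered an intercept-only lmFit and eBayes (limma 3.58.1, R 4.3.3), with two-sided p-values for a mean of 0 adjusted by Benjamini-Hochberg over all 5311 ORFs at a threshold of 0.05. The residual degrees of freedom were 1 per ORF, and the prior, common to all ORFs, added 23.5. A dye term would leave no residual degree of freedom. A rule without a test counted ORFs at least 1.2-fold from 1 on both arrays in the same direction. Pathway genes named with values were, per role, up to 2 with one sign on both arrays and the largest smaller absolute value. HXK1, PGM2, UGP1, GLC8, BMH2, SOL4 and TMA10 were chosen after their values were seen. The members and lists were chosen with earlier results of these data known. Alternatives were array 1 turned, centred arrays, scaled arrays, robust variances, single arrays, medians, ATH1 left out and other folds. Python 3.11.15, pandas 2.3.3, numpy 2.4.6 and matplotlib 3.10.9 were used.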

Additional observations from a re-analysis of the deposited data

How the results depend on the processing

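The count of ORFs past limma's test, 41, was 61 with centred arrays, 31 with scaled arrays and 40 with robust variances, and it fell to 0 with array 1 turned (499 at an unadjusted p under 0.05). The cause of that fall was not tested. A single array allows no test. In 40 refits of the 10 genes 0 passed, and the lowest limma adjusted p was 0.524. With array 1 turned, means changed sign for TPS1 (0.018), TPS2 (-0.025), TPS3 (0.21), TSL1 (0.084), NTH2 (-0.18), GSY2 (-0.0035), GPH1 (0.029), GLG2 (0.064), PSK1 (-0.031), GLC8 (-0.43), SOL4 (0.19) and TMA10 (-0.062). TPS3 and GPH1 also changed sign with centred arrays (0.0087 and 0.019) and scaled arrays (0.029 and 0.021). On single arrays the values ran from -0.22 to 0.19 for TPS3, -0.023 to 0.34 for NTH2, -0.038 to 0.020 for GPH1, -0.38 to 0.48 for GLC8 and -0.51 to 0.29 for BMH2. The difference between synthesis and breakdown, -0.02, was -0.11 to 0.07 on single arrays, 0.09 with array 1 turned, -0.01 with scaled arrays, -0.07 by medians and -0.13 without ATH1. In either direction 96 ORFs were at least 1.2-fold on both arrays, 346 at 1.1-fold and 28 at 1.5-fold, among them 1, 1 and 0 of the 10 genes. Each ratio already sets treated against untreated RNA within 1 array.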
